A study of Mus musculus musculus x Mus musculus castaneus with 12 samples.

Results

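The genes described here are 10 genes of glycolysis and of the response to low oxygen, taken by symbol from the 24346 genes counted in each sample: *Slc2a1*, *Slc2a3*, *Hk2*, *Pfkp*, *Pgk1*, *Ldha*, *Pfkfb3*, *Egln1*, *Bnip3* and *Slc16a3*. All 10 were among the 14671 genes tested, that is, above 1 TPM (transcript abundance normalised to length and depth) in at least 1 sample. The cells were mouse embryonic stem (ES) cells, F1 hybrids of C57BL/6J (BL6) and *Mus castaneus* (cast), in which *Kdm6a*, an X-linked histone demethylase gene, had been deleted by CRISPR/Cas9. The groups from the BL6 x cast cross (BC) were male wild type (wt, n = 2), male exonic knockout (KO) clones ΔE1 and ΔE3, the male promoter KO clone ΔP4 and female wt (n = 2). The groups from the reciprocal cast x BL6 cross (CB) were male wt (n = 2), male exonic KO clones ΔE2.5 and ΔE2.7, and the male promoter KO clone ΔP2.1. Exonic clones lack exons 2 to 4 of *Kdm6a*, and promoter clones lack its promoter region with exons 1 and 2. By the study's methods, 1 editing event gave rise to both BC exonic clones, and both carry the same off-target loss of *Sh3kbp1*, *Map3k15* and *Pdha1*. The CB wt line carries an actin-GFP transgene. Cells were grown with serum and leukemia inhibitory factor on feeder fibroblasts, which were reduced by plating on gelatin before collection. The study's methods call the wt replicates biological without saying whether they were separate cultures, so p-values measure the spread between these samples, part of which may be technical.

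Glucose enters cells through facilitative transporters and is broken down by glycolysis to pyruvate. Pyruvate is either fed into mitochondria by the pyruvate dehydrogenase complex, of which PDHA1 is the catalytic E1 alpha subunit, or reduced to lactate by lactate dehydrogenase and exported. When oxygen falls, prolyl hydroxylases no longer mark the alpha subunits of the hypoxia-inducible factors (HIF) for VHL-dependent degradation, and HIF raises the transcription of glucose transporters, glycolytic enzymes, mitophagy genes and of some of the hydroxylases themselves. Mouse ES cells in serum use glycolysis heavily even when oxygen is plentiful.

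Fragments counted on genes ranged from 68457338 to 89070402 per sample in the BC cross and from 49975599 to 53407103 in the CB cross. Levels are given as FPKM, fragments per kilobase of transcript normalised to sequencing depth, with library sizes scaled by TMM (trimmed mean of M values) as in the tests. *Kdm6a* was at 19.1 and 19.9 FPKM in BC wt against 4.43 in ΔE1, 5.17 in ΔE3 and 0.0159 in ΔP4, and at 18.5 and 18.9 FPKM in CB wt against 0.788 in ΔE2.5, 2.8 in ΔE2.7 and 0.0138 in ΔP2.1. *Pdha1* was at 0.0825 FPKM in ΔE1 and 0.279 FPKM in ΔE3 and between 105 and 180.0 FPKM in the other 10 samples. Of the ES cell markers, *Pou5f1* lay between 757 and 1432 FPKM in all samples while *Fut4* stayed between 0.256 and 1.62 FPKM. The summed level of 8 ES cell markers was 2701 to 3106 FPKM in BC wt, 3570 to 3581 in the BC exonic clones and 2536 in ΔP4. It was 2111 to 2116 in CB wt, 2296 to 2606 in the CB exonic clones and 2394 in ΔP2.1. Of the 8 markers, 6 were above both wt samples and 0 below in both BC exonic clones, with 4 above and 3 below in ΔP4. In both CB exonic clones 3 were above and 1 below both CB wt samples, with 5 above and 3 below in ΔP2.1. The part of these markers in the differences below was not tested. The summed level of 8 fibroblast markers was 13.1 to 13.9 FPKM in BC wt, 4.76 to 9.67 in the BC exonic clones, 7.94 in ΔP4, 28 to 28.3 in female wt, 30.1 to 32.2 in CB wt, 10.3 to 16.3 in the CB exonic clones and 50.8 in ΔP2.1. Of these 8, 6 were below both wt samples in both BC exonic clones, 7 in ΔP4 and 6 in both CB exonic clones, while in the females 6 were below and 2 above both male BC wt samples. In ΔP2.1, with the highest sum, 4 were below and 3 above both CB wt samples. *Lum* was listed at 0 in at least 1 sample and stayed under 0.177 FPKM, and *Col1a1* ranged from 0.925 to 38.8 FPKM. Summed levels ran from 6 to 19.4 FPKM for 6 primitive endoderm markers and from 17.9 to 41.3 FPKM for 5 trophoblast markers. Of the 6 primitive endoderm markers, 5 were above and 1 below both wt samples in both BC exonic clones, with 2 above and 2 below in ΔP4. In both CB exonic clones 1 was above and 4 were below both CB wt samples, with 0 above and 5 below in ΔP2.1. In such bulk samples, a change in the number of cells that express a gene and a change in RNA per cell cannot be told apart.

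Reads were counted where they mapped uniquely, and the genes differ in how much of their transcript can be mapped uniquely. Of the 75-base windows of the *Pgk1* transcript, 67.5% occur letter for letter in other annotated genes, and for the coding windows the share is 100%. The share was 46.3% for *Bnip3*, 16.6% for *Pfkp*, 5.23% for *Ldha*, 0.973% for *Slc2a1* and 0 for the other 5 genes. The shared windows of *Pfkp* lie in *Pitrm1*, which overlaps it, and the library kit keeps no strand, so reads from the overlap cannot be assigned. A stretch of 1 read length from the coding sequence of *Bnip3* shows the limit, since a read with these letters has more than 1 possible origin (GENCODE transcript of GRCm38, 5′ to 3′, no base singled out):

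*Bnip3*, coding bases 407 to 481: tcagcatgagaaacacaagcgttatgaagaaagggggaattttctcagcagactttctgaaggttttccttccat

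The values of *Pgk1* and *Bnip3* are therefore uncertain in level, and those of *Pgk1*, *Bnip3* and *Ldha* also between crosses, as described below.

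Comparisons were made within a cross. A gene was called where the quasi-likelihood test of edgeR gave a Benjamini-Hochberg adjusted p under 0.05 over all tested genes and the change was at least 1.5-fold. Adjusted p-values below are from this test unless another is named. The exonic and promoter comparisons of a cross share its wt samples, and the comparison of female with male wt shares the male BC wt samples, so they are not independent. The promoter group of each cross is a single clone, which is assumed to vary like the other groups. In the BC exonic clones, which lack *Pdha1*, 2 of 10 genes were called lower and 0 higher, where 2.88% of all tested genes were called lower, 2.39% higher and 5.27% in either direction. The 2 were *Egln1* and *Slc16a3*, and DESeq2, which called 6.75% of all tested genes, also called *Bnip3*. With ΔE1 left out, 5 of 10 genes were called lower by edgeR, *Slc2a1* (-0.83), *Pfkfb3* (-0.65) and *Bnip3* (-1.28) in addition, where 8.15% of all tested genes were called lower. With ΔE3 left out, 2 of 10 were called lower, where 2.88% of all tested genes were, and *Slc2a1* was at 0.11, *Pfkfb3* at -0.16 and *Bnip3* at -0.50. With the spread taken from the BC male samples alone 0 of 10 were called, where 4 of all tested genes were. In ΔP4, which has *Pdha1*, 0 of 10 were called by edgeR and 0 by DESeq2, where edgeR called 2.97% of all tested genes (0.995% lower and 1.97% higher) and DESeq2 5.11%. *Ldha* alone was under 0.05 without adjustment there. In the CB exonic clones, 1 of 10 genes was called, *Pfkfb3*, which was lower, where 4.7% of all tested genes were called lower, 3.17% higher and 7.87% in either direction. In ΔP2.1, 0 of 10 were called by edgeR, 0 by DESeq2 and 0 were under 0.05 without adjustment, where edgeR called 1.17% of all tested genes (0.579% lower and 0.586% higher) and DESeq2 3.33%. The median log2 fold change over the 10 genes was -0.37 in the BC exonic clones, -0.10 in ΔP4, -0.41 in the CB exonic clones and -0.13 in ΔP2.1, while the median over all tested genes was 0.01 in the first 3 and -0.01 in ΔP2.1.

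**Figure D1:**
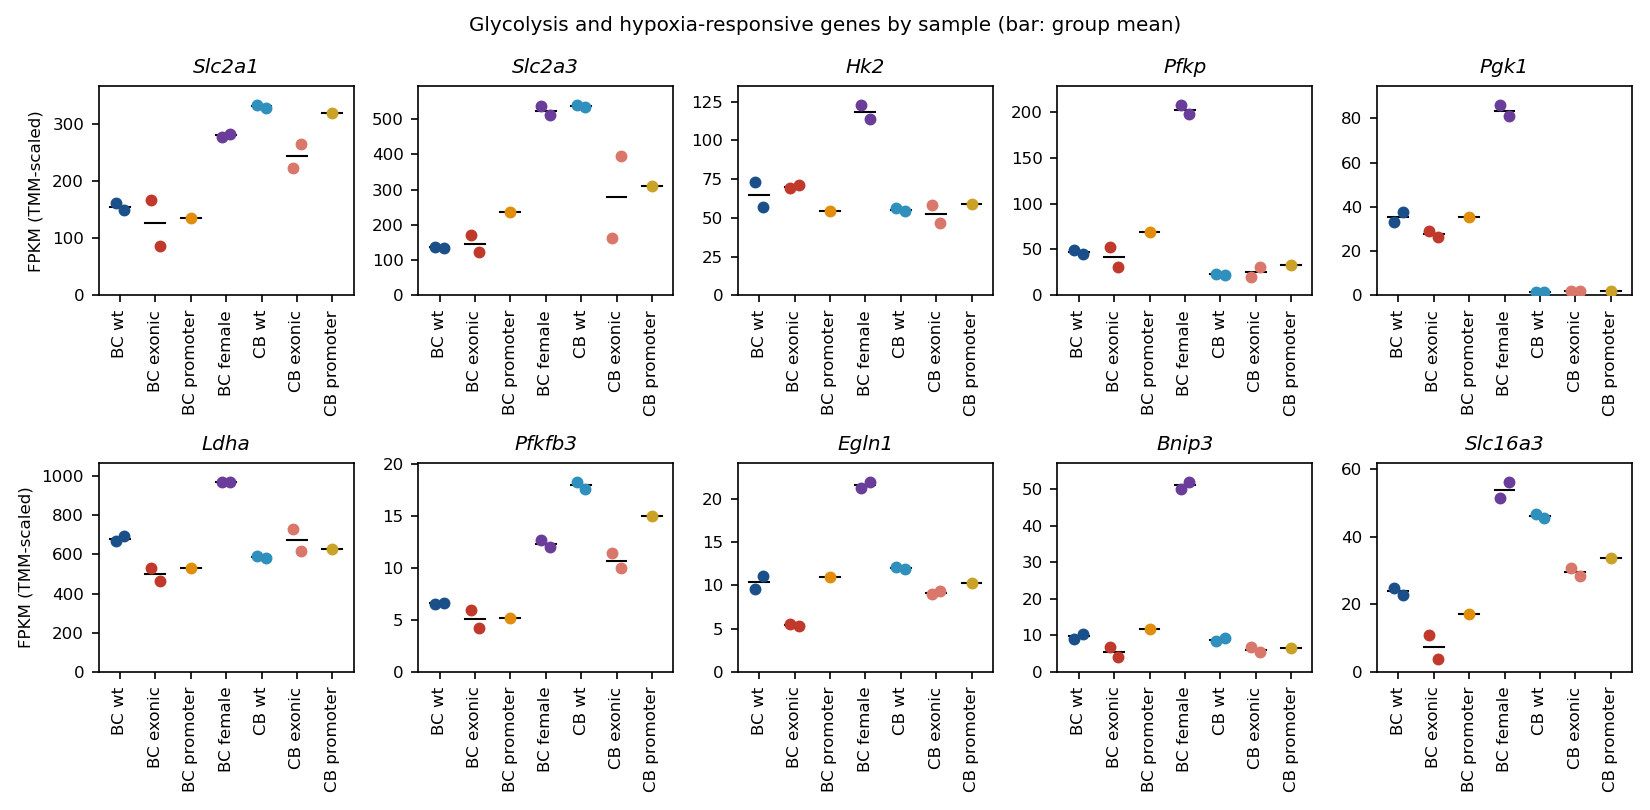
Level of each of the 10 genes in FPKM with TMM-scaled library sizes (y axis, linear from 0, its own range in each panel) in the 7 groups (x axis), with 1 point per sample and a bar at the group mean. Female BC wt lies above male BC wt in every panel, the BC exonic clones lie lowest of all groups for *Egln1*, and *Pgk1* lies between 1.6 and 2 FPKM in all CB samples.

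The glucose transporter genes differed between clones of 1 group, and with all samples in the fit none of their differences from wt was called. *Slc2a1* (GLUT1, the widely expressed glucose transporter; chromosome 4, 119108711 to 119137983, plus strand, GRCm38) was at 161 and 149 FPKM in BC wt, 167 in ΔE1, 87 in ΔE3 and 135 in ΔP4. The exonic clones lay on opposite sides of the wt samples, and the difference of the group was -0.28 ± 0.24 (log2 fold change ± SE, adjusted p = 0.52, edgeR). In the CB cross it was at 333 and 328 FPKM in wt, 223 in ΔE2.5, 265 in ΔE2.7 and 319 in ΔP2.1. All 3 CB clones were below both wt samples, and the exonic difference of -0.44 ± 0.24 was not called (adjusted p = 0.26, edgeR).

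*Slc2a3* (GLUT3, a high-affinity glucose transporter; chromosome 6, 122727809 to 122801640, minus strand) was at 137 and 135 FPKM in BC wt, 169.8 in ΔE1, 124 in ΔE3 and 236 in ΔP4. In the CB cross it was at 540.0 and 536 FPKM in wt, 162 in ΔE2.5, 396 in ΔE2.7 and 311 in ΔP2.1. It was lower in each CB clone than in both CB wt samples and higher in ΔP4 than in both BC wt samples, with ΔE1 above and ΔE3 below them. The differences were -0.95 ± 0.34 in the CB exonic clones (adjusted p = 0.093, edgeR), -0.79 ± 0.42 in ΔP2.1 (adjusted p = 0.36), 0.79 ± 0.40 in ΔP4 (adjusted p = 0.26) and 0.11 ± 0.33 in the BC exonic clones (adjusted p = 0.88), and none was called. The CB exonic clones lay farther apart than the BC exonic clones, and the value was -1.73 and called without ΔE2.7 (adjusted p = 0.0027, edgeR) but -0.43 and not called without ΔE2.5 (adjusted p = 0.11). The differences of ΔP4 and ΔP2.1 were called when 1 of the CB exonic clones was left out, which takes the spread between them out of the estimate.

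*Slc16a3* (MCT4, a lactate exporter; chromosome 11, 120948480 to 120960868, plus strand) was at 25 and 22.7 FPKM in BC wt, 11 in ΔE1, 3.77 in ΔE3 and 17.1 in ΔP4. All 3 BC clones were below both wt samples, with the exonic clones below the promoter clone. The exonic difference was -1.69 ± 0.38, a 3.22-fold lower level (adjusted p = 0.034, edgeR), and that of ΔP4 was -0.48 ± 0.47 (adjusted p = 0.57). The size of the exonic difference rested on ΔE3, being -1.12 without it and -2.65 without ΔE1. The call was lost when either BC wt, either female wt or either CB wt sample was left out, with adjusted p between 0.068 and 0.16, and with the spread taken from the BC male samples alone (adjusted p = 0.20, edgeR). In the CB cross *Slc16a3* was at 46.9 and 45.5 FPKM in wt, 30.8 in ΔE2.5, 28.3 in ΔE2.7 and 33.8 in ΔP2.1. Again every clone was below both wt samples, at -0.64 ± 0.37 in the exonic clones (adjusted p = 0.28) and -0.45 ± 0.46 in ΔP2.1 (adjusted p = 0.64). With the spread taken from the CB male samples alone, the exonic difference in CB was called (adjusted p = 0.022, edgeR), as it was without ΔE1 or without ΔE3 (adjusted p = 0.0014 in both). The fibroblast marker sum was also lower in the BC clones and the CB exonic clones than in their wt. It was higher in ΔP2.1, although 4 of the 8 markers were below both wt samples there and 3 above. The part of the feeder cells in the values of *Slc16a3* was not tested.

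Among the enzymes, *Hk2* (hexokinase 2, which traps glucose as glucose 6-phosphate; chromosome 6, 82725025 to 82774454, minus strand) stayed near its wt level. It was at 73.4 and 56.7 FPKM in BC wt, 69.1 in ΔE1, 71.3 in ΔE3 and 54.3 in ΔP4, so both exonic clones fell between the wt samples. In CB it was at 56.5 and 54.2 FPKM in wt, 58.2 in ΔE2.5, 46.9 in ΔE2.7 and 58.7 in ΔP2.1. Its differences in the 4 comparisons of clones with wt ran from -0.26 to 0.11.

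*Pfkp* (the platelet-type phosphofructokinase subunit, of the committing step of glycolysis; chromosome 13, 6579768 to 6648777, minus strand) was at 49.6 and 44.6 FPKM in BC wt, 53.2 in ΔE1, 30.9 in ΔE3 and 68.9 in ΔP4. In CB it was at 23.3 and 22.6 FPKM in wt, 19.5 in ΔE2.5, 30.7 in ΔE2.7 and 33.4 in ΔP2.1. In each cross 1 exonic clone was above and the other below both wt samples, and the promoter clone was the highest, at 0.55 ± 0.31 in ΔP4 (adjusted p = 0.31, edgeR) and 0.54 ± 0.31 in ΔP2.1 (adjusted p = 0.40).

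*Ldha* (lactate dehydrogenase A, which reduces pyruvate to lactate; chromosome 7, 46841475 to 46855627, plus strand) had the highest level of the 10 genes in each of the 12 samples. It was at 667 and 693 FPKM in BC wt, 531 in ΔE1, 464 in ΔE3 and 528 in ΔP4. All 3 BC clones were below both wt samples, the exonic clones by -0.45 ± 0.10 (adjusted p = 0.028, edgeR), which is under 1.5-fold, and ΔP4 by -0.36 ± 0.12 (adjusted p = 0.12). In CB it was at 592 and 579 FPKM in wt, 732 in ΔE2.5, 617 in ΔE2.7 and 629.7 in ΔP2.1, so every clone was above both wt samples, by 0.20 ± 0.10 in the exonic clones (adjusted p = 0.19) and 0.10 ± 0.12 in ΔP2.1 (adjusted p = 0.68).

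*Pgk1* (phosphoglycerate kinase, an ATP-yielding step; X chromosome, 106187100 to 106203699, plus strand) was at 33.1 and 37.6 FPKM in BC wt, 29 in ΔE1, 26.5 in ΔE3 and 35.5 in ΔP4. The exonic clones were below both wt samples by -0.35 ± 0.09 (adjusted p = 0.048, edgeR), under 1.5-fold, and ΔP4 lay between the wt samples. In CB it was at 1.71 and 1.6 FPKM in wt, 2 in ΔE2.5, 1.93 in ΔE2.7 and 2 in ΔP2.1. The fragments behind these values were 151 to 191 per CB sample against 3897 to 5635 per male BC sample. A male carries the X chromosome of his mother, so *Pgk1* is read from the BL6 allele in BC males and from the cast allele in CB males, and all SNP fragments of *Pgk1* were BL6 in BC males and cast in CB males. On the cast genome alone, the CB samples had 1027 to 1315 fragments of *Pgk1*, and the count used for levels holds nearly only fragments that map to both genomes. In the BC males the genomes gave counts within 5 fragments of each other. Levels of *Pgk1* in the CB cross are thus lower bounds and were not compared with those of the BC cross. The direction in the CB clones also depended on the genome. With the cast genome counts, an alternative chosen after seeing the data, the CB exonic clones were at -0.19 ± 0.10 against wt (adjusted p = 0.21, edgeR) and ΔP2.1 at -0.15 ± 0.12 (adjusted p = 0.52), where the counts used for levels gave 0.25 ± 0.11 (adjusted p = 0.16) and 0.27 ± 0.13 (adjusted p = 0.31). In the BC exonic clones the cast genome counts gave -0.35 ± 0.09, with an adjusted p of 0.055 (edgeR).

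**Figure D2:**
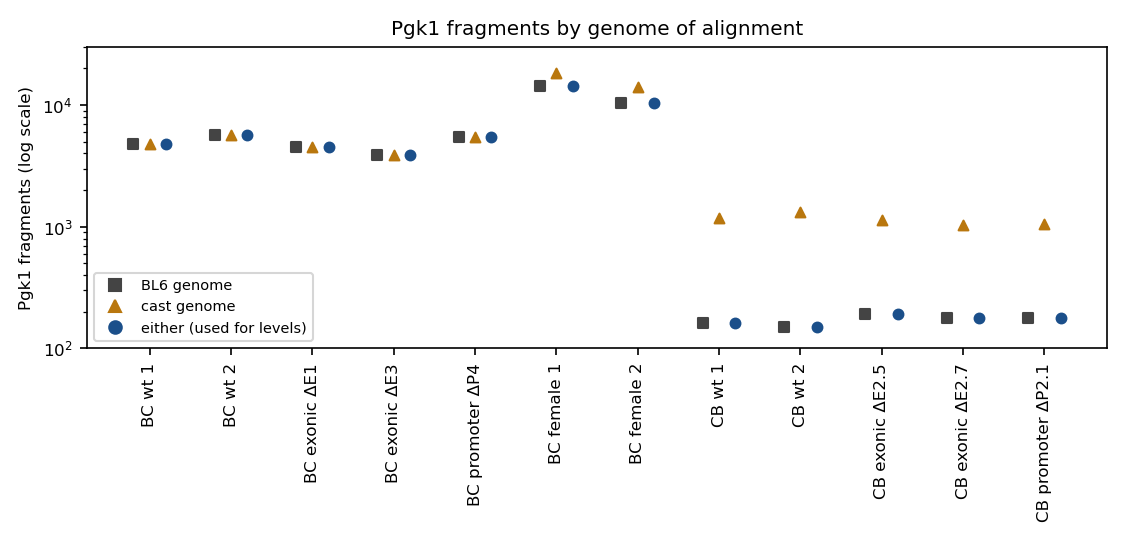
Fragments counted on *Pgk1* in each of the 12 samples (x axis) on a log scale (y axis), by the genome they were aligned to: BL6 (squares), cast (triangles) or both combined in the count used for levels (circles). The 5 CB males have 151 to 191 fragments on BL6 and in the count used for levels but 1027 to 1315 on the cast genome, while in the BC males the symbols coincide.

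*Pfkfb3* (the bifunctional enzyme that makes fructose 2,6-bisphosphate, the main activator of phosphofructokinase; chromosome 2, 11471433 to 11554077, minus strand) was at 18.3 and 17.6 FPKM in CB wt, 11.4 in ΔE2.5, 9.95 in ΔE2.7 and 14.9 in ΔP2.1. The CB exonic clones were lower by -0.75 ± 0.15, a 1.68-fold lower level (adjusted p = 0.014, edgeR), and ΔP2.1 lay between them and wt at -0.26 ± 0.18 (adjusted p = 0.47). The call was lost without CB wt replicate 1 (adjusted p = 0.10), without CB wt replicate 2 (adjusted p = 0.091) and without ΔE2.7 (adjusted p = 0.056). In BC it was at 6.55 and 6.64 FPKM in wt, 5.93 in ΔE1, 4.19 in ΔE3 and 5.16 in ΔP4. Every clone of both crosses was below both wt samples of its cross, and in BC the differences of -0.38 ± 0.15 in the exonic clones (adjusted p = 0.15) and -0.35 ± 0.18 in ΔP4 (adjusted p = 0.28) were not called.

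*Egln1* (PHD2, the main prolyl hydroxylase that marks HIF alpha subunits for degradation and is itself induced by HIF; chromosome 8, 124908587 to 124949324, minus strand) was at 9.58 and 11.1 FPKM in BC wt, 5.5 in ΔE1, 5.32 in ΔE3 and 10.9 in ΔP4. The exonic clones were alike and both below the wt samples, and the promoter clone lay between the wt samples. The exonic difference was -0.93 ± 0.09, a 1.91-fold lower level (adjusted p = 0.0016, edgeR), and the call held when each of the 12 samples was left out in turn, with adjusted p from 0.0012 to 0.021. It was lost with the spread taken from the 5 BC male samples alone (adjusted p = 0.097, edgeR) and with the 3 BC clones as 1 group (-0.51, adjusted p = 0.36). That of ΔP4 was 0.08 ± 0.11 (adjusted p = 0.68). In CB it was at 12.1 and 11.9 FPKM in wt, 9 in ΔE2.5, 9.31 in ΔE2.7 and 10.3 in ΔP2.1, with the exonic clones lower by -0.39 ± 0.09 (adjusted p = 0.022), under 1.5-fold.

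The genes of chromosome 8, where *Egln1* lies, were on balance lower in the BC exonic clones than in BC wt. The median log2 fold change of the 745 tested genes of chromosome 8 was -0.49 in the BC exonic clones, 0.03 in ΔP4 and -0.01 in the CB exonic clones. With the chromosome median subtracted, *Egln1* was at -0.45 in the BC exonic clones, which is under 1.5-fold and a value with no test. Fragments that carry a SNP showed which allele was read, as the BL6 share after division by the autosomal ratio of BL6 to cast fragments of the sample, with 95% Wilson intervals that cover counting error only. For *Egln1* the BL6 share was 58% (53.9 to 62.1%) and 57.6% (53.6 to 61.4%) in BC wt, 45.2% (40.1 to 50.3%) in ΔE1, 38.7% (33.3 to 44.5%) in ΔE3 and 62.9% (58.8 to 66.9%) in ΔP4, from 281 to 637 SNP fragments per sample. The median BL6 share of chromosome 8 genes was 61.8% and 62.1% in BC wt, 46.9% in ΔE1, 47% in ΔE3 and 62.9% in ΔP4. In female wt this median was 47.9% and 48.1%, and in CB wt 47.7% and 47.6%, near the exonic clones. The chromosome 8 median of female against male BC wt was -0.45. Thus the exonic clones differed from the other male BC samples both in *Egln1* and in its chromosome. In the chromosome, BC wt and ΔP4 in turn differed from the female and CB wt samples. The dosage of chromosome 8 was not tested. The allele difference of the exonic effect in *Egln1* (BL6 minus cast, log2) was -0.95 ± 0.17 and was called (adjusted p = 0.0076, edgeR), 1 of the 9 autosomal genes of the set, where 4.36% of all tested genes were called and 4.16% lower on BL6. That call was lost without BC wt replicate 1 (adjusted p = 0.064), without BC wt replicate 2 (adjusted p = 0.055) and without ΔE3 (adjusted p = 0.068). How much of the difference in *Egln1* goes with the chromosome and how much with *Kdm6a* or *Pdha1* cannot be told apart, since ΔE1 and ΔE3 share all 3.

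**Figure D3:**
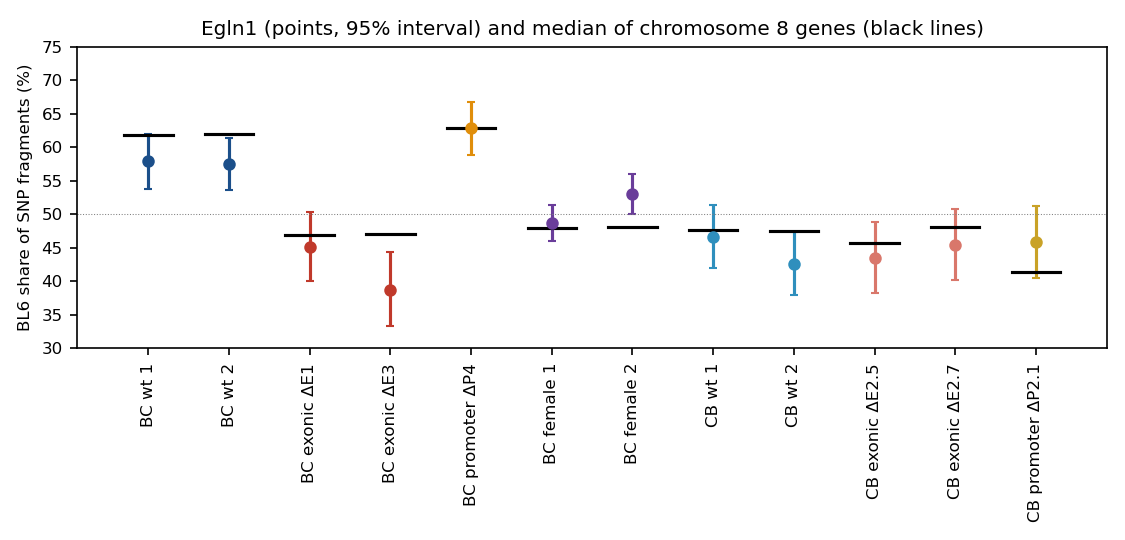
BL6 share of the SNP fragments of *Egln1* in percent (y axis, 30 to 75%) in each of the 12 samples (x axis), with 95% Wilson intervals, and the median BL6 share of chromosome 8 genes in the same sample (black lines). In the BC males, ΔE1 and ΔE3 lie under 50% in both measures while wt and ΔP4 lie above it. The chromosome 8 medians of the female and CB samples lie under 50% as well.

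*Bnip3* (a mitochondrial protein of mitophagy and a HIF target; chromosome 7, 138890836 to 138909519, minus strand) was at 9 and 10.5 FPKM in BC wt, 6.89 in ΔE1, 4.01 in ΔE3 and 11.8 in ΔP4. Both exonic clones were below and the promoter clone above the wt samples. The exonic difference was -0.84 ± 0.23 (adjusted p = 0.060 by edgeR and 0.0048 by DESeq2). It was -1.28 without ΔE1, when edgeR called the gene too (adjusted p = 0.0021), and -0.50 and not called without ΔE3 (adjusted p = 0.092). The difference of ΔP4 was 0.27 ± 0.27 (adjusted p = 0.58, edgeR). In CB it was at 8.41 and 9.2 FPKM in wt, 6.86 in ΔE2.5, 5.34 in ΔE2.7 and 6.63 in ΔP2.1, all 3 clones below both wt samples, at -0.53 ± 0.23 in the exonic clones (adjusted p = 0.16) and -0.41 ± 0.29 in ΔP2.1 (adjusted p = 0.49). The BL6 share of *Bnip3* was 47.5% and 53.4% in BC wt, 60.7% in ΔE1, 70.7% in ΔE3 and 60.0% in ΔP4, from 132 to 471 SNP fragments, and the allele difference of the exonic effect of 0.79 ± 0.22 was not called (adjusted p = 0.12, edgeR).

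In the male samples, the alleles of the other autosomal genes of the set were read nearly equally or with a bias that wt had too, though its size differed between some clones. *Slc2a3* had a BL6 share of 62% and 62.5% in BC wt, 68.6% in ΔE1, 70.8% in ΔE3 and 61.8% in ΔP4, an allele difference of 0.44 ± 0.12 (adjusted p = 0.087, edgeR). In CB its share was 55% and 55.8% in wt, 61.4% in ΔE2.5, 55.1% in ΔE2.7 and 55.9% in ΔP2.1. *Pfkp* was at 41.8% and 40.2% in BC wt, 41% in ΔE1 and 47.5% in ΔE3. *Slc16a3*, in spite of its lower level, had a BL6 share of 50.5% and 49.3% in BC wt, 50.1% in ΔE1 and 48.2% in ΔE3. In the CB exonic clones, 0 of 9 genes were called for an allele difference by edgeR, where 0.0261% of all tested genes were called, and 1 of 9, *Slc16a3*, was under 0.05 without adjustment.

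**Figure D4:**
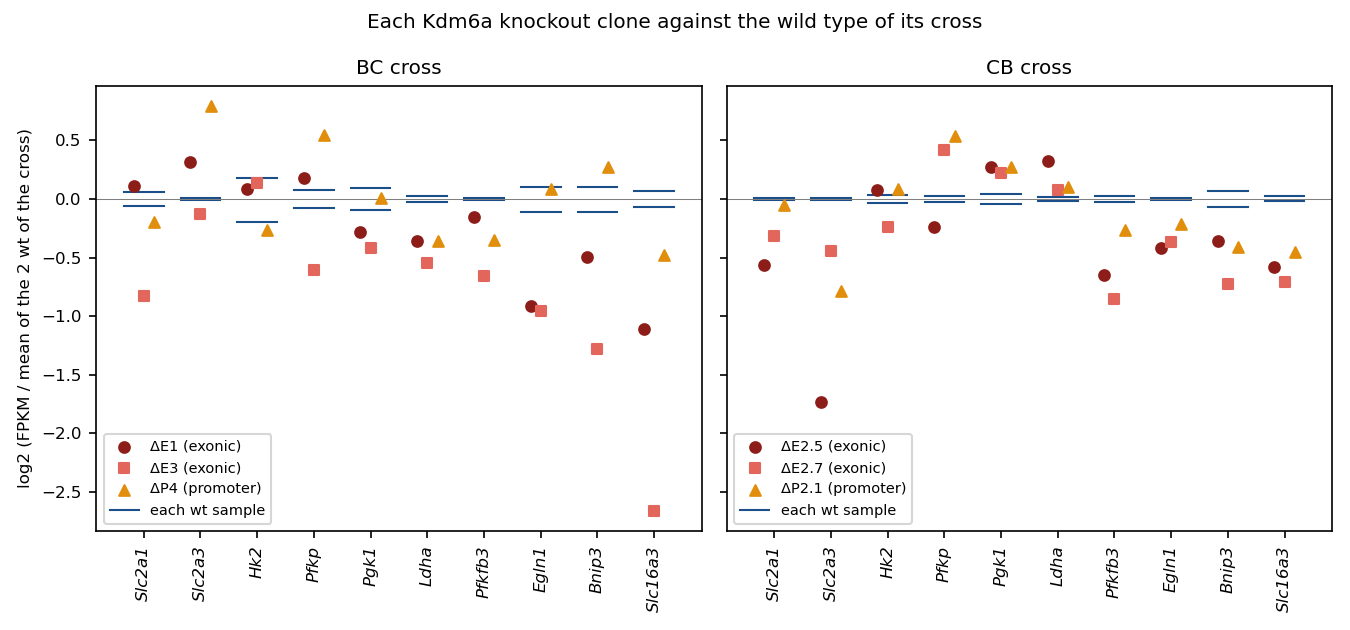
Log2 of the FPKM of each KO clone over the mean of the 2 male wt samples of its cross (y axis) for the 10 genes (x axis), BC on the left and CB on the right; circles and squares are exonic clones, triangles promoter clones, and blue lines the wt samples. ΔE3 has the lowest point of the BC cross for *Slc16a3*, and ΔE2.5 the lowest of the CB cross for *Slc2a3*.

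The clones were then set against each other. Below both wt samples of their cross were 6 of 10 genes in ΔE1, 9 in ΔE3, 5 in ΔP4, 7 in ΔE2.5, 7 in ΔE2.7 and 6 in ΔP2.1, where the share over all tested genes ran from 40.1% to 46.7%. The BC exonic clones were compared directly with ΔP4, the contrast between clones with and without *Pdha1*, although both lack *Kdm6a*. In this comparison 2 of 10 genes were called lower, where 2.93% of all tested genes were called lower, 1.21% higher and 4.14% in either direction. The first was *Egln1* at -1.02 ± 0.10 (adjusted p = 0.0047, edgeR), or -0.53, under 1.5-fold, after subtraction of the chromosome 8 median. The other was *Bnip3* at -1.11 ± 0.27 (adjusted p = 0.048, edgeR). With the spread from the BC male samples alone neither was called (adjusted p = 0.17 for *Egln1* and 0.24 for *Bnip3*). The call of *Bnip3* was also lost when either BC wt, either female wt or either CB wt sample was left out, with adjusted p from 0.084 to 0.10, and with the size factors of DESeq2 in the edgeR fit (adjusted p = 0.0502). *Slc16a3* was at -1.21 ± 0.44 (adjusted p = 0.13), ranging from -0.62 without ΔE3 to -2.16 without ΔE1 and called in both cases. *Pfkp* was at -0.71 ± 0.31 (adjusted p = 0.19), being -1.13 and called without ΔE1 (adjusted p = 0.024) and -0.36 and not called without ΔE3 (adjusted p = 0.37). *Ldha* and *Pfkfb3* differed little between exonic and promoter clones, at -0.09 ± 0.12 and -0.03 ± 0.18. ΔP4 is a single clone of another editing event, so the presence of *Pdha1*, the kind of deletion and the clone cannot be told apart.

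The difference of the exonic effect between the crosses was tested as an interaction. In it 2 of 10 genes were called, both with a lower value in BC, where 4.54% of all tested genes were called lower, 5.07% higher and 9.61% in either direction. These were *Ldha* at -0.65 ± 0.14 (adjusted p = 0.022, edgeR) and *Pgk1* at -0.59 ± 0.14 (adjusted p = 0.030). *Ldha* differed from wt by -0.45 in BC and 0.20 in CB, and *Pgk1* by -0.35 in BC and 0.25 in CB. With the cast genome counts, which hold more fragments of *Pgk1* in the CB males, the interaction of *Pgk1* was -0.16 ± 0.13 and not called (adjusted p = 0.47, edgeR), so it rests on the genome used for counting. The call of *Ldha* was lost without any 1 of the 6 wt samples, without ΔE3 and without ΔE2.5, with values from -0.69 to -0.53 and adjusted p up to 0.10 (edgeR). That of *Pgk1* was lost without BC wt replicate 2, either female or either CB wt sample, ΔE3 or ΔE2.5, with adjusted p up to 0.14. *Egln1* was at -0.54 ± 0.12 (adjusted p = 0.027), under 1.5-fold, and at -0.09 after subtraction of the chromosome 8 median. For *Slc2a3* the interaction was 1.06 ± 0.47 (adjusted p = 0.18), being 1.84 and called without ΔE2.7 (adjusted p = 0.0041) and 0.55 and not called without ΔE2.5 (adjusted p = 0.12). For *Slc16a3* it was -1.04 ± 0.53 (adjusted p = 0.23), being -2.01 and called without ΔE1 (adjusted p = 0.00034) and -0.48, under 1.5-fold, without ΔE3.

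The 10 genes were higher in female BC wt than in male wt, with both female samples above both male samples, and 9 of 10 were called higher, where 22.9% of all tested genes were called higher and 41.4% in either direction. *Bnip3* was at 50.1 and 52 FPKM in female wt, 2.39 ± 0.23 above male wt (log2 fold change ± SE, adjusted p = 7e-05, edgeR), and its 2 female values were the highest of the 12 samples. *Pfkp* was at 207 and 197 FPKM, 4.30-fold higher than in male wt (adjusted p = 0.00025, edgeR), and *Slc2a3* at 537 and 510.5 FPKM, 1.94 ± 0.35 above (adjusted p = 0.0014). *Pgk1* was at 86.1 and 81 FPKM, 1.24 ± 0.09 above male wt (adjusted p = 1.9e-05), where the median of X-linked genes was 0.84, which left 0.40 for *Pgk1*. With the cast genome counts it was 1.63 above male wt. Its SNP fragments were 58.6% and 58.5% BL6 in the females, so both X chromosomes were read. *Egln1* was at 21.3 and 22 FPKM, 1.06 ± 0.09 above male wt (adjusted p = 3.2e-05), and 1.52 above after subtraction of the chromosome 8 median of -0.45. *Slc16a3* was at 51.6 and 56.4 FPKM (1.18 ± 0.38, adjusted p = 0.024), and *Slc2a1* at 277 and 282 FPKM (0.85 ± 0.25, adjusted p = 0.016). The call of *Slc2a1* was lost without any 1 of the male or female BC wt samples (adjusted p from 0.057 to 0.087), and that of *Slc16a3* likewise (adjusted p from 0.067 to 0.12). *Pfkfb3* was at 12.6 and 12 FPKM (0.90 ± 0.15, adjusted p = 0.00095) and *Hk2* at 123 and 114 FPKM (0.86 ± 0.14, adjusted p = 0.00079). *Ldha*, at 972 and 970.0 FPKM, was 0.51 ± 0.10 above male wt (adjusted p = 0.0020), under 1.5-fold. The summed level of 8 ES cell markers was also higher in the females, at 5645 and 6133 FPKM against 2701 and 3106. Of the 8, 6 were above and 1 below both male samples, and their part in these differences was not tested. Sex and cell line cannot be told apart here.

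**Figure D5:**
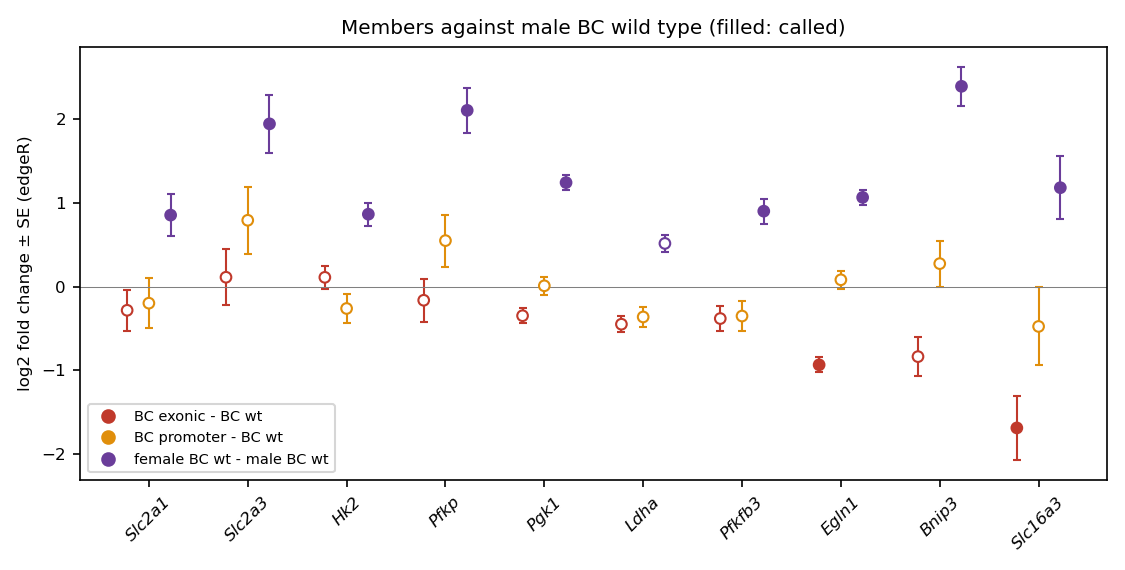
Log2 fold change ± SE from edgeR (y axis) of the 10 genes (x axis) against male BC wt, in the BC exonic clones (red), the promoter clone ΔP4 (orange) and female wt (purple), filled where the gene was called. Female values are all above 0 and 9 are filled, while *Egln1* and *Slc16a3* are the filled genes of the exonic clones.

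The order of the wt levels differed from gene to gene. *Slc2a1*, *Slc2a3*, *Pfkfb3* and *Slc16a3* were higher in CB wt males than in BC wt males, at 330.2 ± 3.52 against 155 ± 8.59 FPKM for *Slc2a1*, 538 ± 3.09 against 136 ± 1.24 for *Slc2a3*, 17.9 ± 0.494 against 6.59 ± 0.0668 for *Pfkfb3* and 46.2 ± 0.955 against 23.8 ± 1.66 for *Slc16a3* (mean ± SD, n = 2 each). For *Slc2a3* the CB males and the BC females were neighbours, with the females at 524 ± 18.5 FPKM, and did not differ beyond that spread. For *Slc2a1* and *Pfkfb3* the females lay between the male groups. *Pfkp* was lower in CB wt, at 23 ± 0.524 against 47.1 ± 3.49 FPKM, and *Hk2*, *Ldha*, *Egln1* and *Bnip3* were within 1.5-fold of each other in the male wt groups. For *Ldha*, the count used for levels held 83% and 85.2% of the BL6 genome fragments in BC wt against 92.7% and 92.9% in CB wt. For *Bnip3* it held 76.4% and 78% in BC wt against 92.7% and 93% in CB wt. The levels of these genes are thus undercounted more in BC than in CB. Crosses were not tested against each other, as line, depth and the transgene differ with the cross.

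The 10 genes belong to 5 lists of pathway genes with 57 genes in all, each of which was tested. The lists were chosen with earlier results of these data known. In the BC exonic clones 8 of 57 were called lower and 0 higher, where 2.88% and 2.39% of all tested genes were, with a list median of -0.19 against 0.01 over all genes. By list, the counts called lower were 1 of 7 glucose and lactate transporters, 1 of 19 glycolytic enzymes, 0 of 5 regulators of fructose 2,6-bisphosphate, 2 of 8 genes of oxygen sensing and HIF subunits and 4 of 18 HIF-responsive genes outside glycolysis. Among the called genes, the largest decreases beside those of *Slc16a3* and *Egln1* were those of *Adm*, *Ankrd37* and *Ak4*. *Adm*, which encodes the vasodilator peptide adrenomedullin, was at 1.73 and 1.8 FPKM in BC wt, 0.499 in ΔE1, 0.259 in ΔE3 and 1.16 in ΔP4, a difference of -2.21 ± 0.29 in the exonic clones (adjusted p = 0.0043, edgeR). *Ankrd37*, an ankyrin repeat gene known as a HIF target, was at 13.3 and 14.8 FPKM in wt, 4.27 in ΔE1, 2.22 in ΔE3 and 10.6 in ΔP4, a difference of -2.11 ± 0.26 (adjusted p = 0.0037). *Ak4*, a mitochondrial adenylate kinase, was at 8.03 and 8.34 FPKM in wt, 5.59 in ΔE1, 3.82 in ΔE3 and 6.5 in ΔP4, a difference of -0.80 ± 0.17 (adjusted p = 0.026). In all 3 genes the exonic clones were below ΔP4 and ΔP4 was below both wt samples. The differences of these 3 genes are given without subtraction of a chromosome median. For a gene of chromosome 8 that median was -0.49 in the BC exonic clones. With the spread taken from the BC male samples alone, 4 of all tested genes were called in the BC exonic clones, against 773 with all samples.

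In ΔP4, 1 of 57 pathway genes was called, where 2.97% of all tested genes were. It was *Eno2*, the neuronal enolase of glycolysis, which was higher, at 12 FPKM against 4.22 and 4.02 in BC wt (1.54 ± 0.13, adjusted p = 0.0028, edgeR). In the CB exonic clones 2 of 57 were called lower and 1 higher, where 4.7% and 3.17% of all tested genes were. *Plod2*, a collagen lysyl hydroxylase and HIF target, was at 28.7 FPKM in ΔE2.5 and 23.3 in ΔE2.7 against 47.1 and 48 in CB wt (-0.87 ± 0.21, adjusted p = 0.028), and the other gene called lower was *Pfkfb3*. *Egln3*, the HIF prolyl hydroxylase PHD3, was higher there, at 16.1 FPKM in ΔE2.5 and 17.2 in ΔE2.7 against 9.13 and 8.79 in CB wt (0.89 ± 0.07, adjusted p = 0.00074). In ΔP2.1, 1 of 57 was called, where 1.17% of all tested genes were. It was *Eno2*, which was lower at 1.82 FPKM against 3.31 and 3.28 in CB wt (-0.86 ± 0.15, adjusted p = 0.039). With the spread taken from the male samples of the same cross alone, 3 of all tested genes were called in ΔP4 and 11 in ΔP2.1. Between female and male BC wt, 34 of 57 were called higher and 4 lower, where 22.9% and 18.5% of all tested genes were, with a list median of 0.76 against 0.00 over all genes.

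The mean of the 10 genes over the clones, as log2(TPM + 1) minus the mean of the wt samples of the cross, was -0.23 in ΔE1, -0.75 in ΔE3, 0.10 in ΔP4, -0.45 in ΔE2.5, -0.36 in ΔE2.7 and -0.18 in ΔP2.1. The tested genes outside the set with the most similar pattern over these 6 clones were *Tubb3* (Pearson's r = 0.997), *D8Ertd82e* (r = 0.993) and *Inppl1* (r = 0.988). This is a description over 6 points, of which the clones of a cross share the wt samples, and 30 genes had an r above 0.95.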

How the data were processed

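RNA-seq libraries (TruSeq V2, not strand-specific, 75-base single-end reads) of 12 samples were analysed. The authors deposited, per gene and sample, estimated count values without normalization: fragments mapped to the BL6 genome, to a pseudo-cast genome made by placing cast SNPs into mm10, and to either genome, and fragments with BL6 or with cast SNPs. By the study's methods, reads were kept when uniquely mapped with high quality, with Bowtie2 2.2.5 named in the submitters' processing notes. In the deposited estimated counts, 99.7% of the values for either genome were at most the smaller of the values for the genomes, so reads that map to 1 genome alone are mostly left out of them.

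The counts for either genome were rounded and fitted with edgeR 4.0.16 (glmQLFit, glmQLFTest, TMM) in R 4.3.3 with 1 mean per group over all 12 samples. Genes above 1 TPM in at least 1 sample were tested, and *Sh3kbp1*, *Map3k15* and *Pdha1* were left out of comparisons with the BC exonic clones. Allele differences were fitted to BL6 and cast SNP fragments, with the sample as a block, over autosomal genes with a mean of at least 20 SNP fragments. Lengths are those of the longest GENCODE M21 transcript (GRCm38, the same build as mm10) with a RefSeq match, found for 23310 of 24346 genes, and the median of 2284 bases for the rest. The depth was 49975599 to 89070402 fragments per sample. The median chi-square per gene between replicates was 0.699 for CB wt, 2.79 for BC wt and 1.88 for female wt, so CB wt replicates differed little more than by counting noise. It was 14.4 between ΔE1 and ΔE3 and 7.27 between ΔE2.5 and ΔE2.7. Precision in the clone comparisons is thus limited by the spread between clones and not by depth alone. DESeq2 was used in version 1.42.0. Tables were made with Python 3.11.15, pandas 2.3.3 and numpy 2.4.6.

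The members and the pathway lists were chosen with earlier results of these data known. Genes named are the 10 members in every comparison, *Kdm6a* and *Pdha1* as checks, of the pathway lists the called genes of the 4 comparisons with wt (at most 5 in each direction by size), and the 3 genes of most similar pattern. Alternatives were DESeq2, its size factors in edgeR, no filter or 5 TPM, BL6 genome counts, cast genome counts (added after seeing the data), samples of the same cross alone, ΔE1 and ΔE3 averaged, all clones of a cross as 1 group, a replicate block, 50 SNP fragments or no TMM for alleles, centring by chromosome, and leaving out each sample. The labels' replicate numbers do not pair the wt samples. 1 sequence of the set is not reported here.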

Additional observations from a re-analysis of the deposited data

Results flagged for a closer look

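For 3 of the 10 genes the test of the difference of the exonic effect between the crosses gave an adjusted p under 0.05 in edgeR, and 2 of them were also past 1.5-fold and so called, where 9.61% of all tested genes were called. *Ldha*, the lactate dehydrogenase A gene, had an interaction of -0.65 ± 0.14 on the log2 scale (adjusted p = 0.022), with every BC clone below and every CB clone above the wt samples of its cross. Its adjusted p was 0.051 when only male samples entered, and it ranged from 0.0070 to 0.10 with 1 sample left out at a time. *Pgk1* had an interaction of -0.59 ± 0.14 (adjusted p = 0.030), which rests on 151 to 191 fragments per CB sample and was lost at 0.066 with male samples alone. With the cast genome counts, 1027 to 1315 fragments per CB sample, *Pgk1* was at -0.19 ± 0.10 in the CB exonic clones, the direction it had in BC, and the interaction was -0.16 ± 0.13 (adjusted p = 0.47). *Egln1* had an interaction of -0.54 ± 0.12 (adjusted p = 0.027), and -0.09 was left after subtraction of the chromosome 8 median.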

How the results depend on the processing

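Each difference of the set that was called with all samples kept its direction under each alternative run. With the chromosome median subtracted, *Egln1* was under 1.5-fold in the BC exonic clones (-0.45) and in these against ΔP4 (-0.53). So was *Pgk1* in female against male wt (0.40). Of 33 member differences called in at least 1 fit, 3 crossed 0 in another, none of them called with all samples: *Slc2a1* in the BC exonic clones (-0.83 without ΔE1 and 0.11 without ΔE3) and against ΔP4 (-0.61 and 0.33), and *Bnip3* in the interaction (-0.75 and 0.02). In all, 11 of 656 member values under other settings and 37 of 1026 with 1 sample left out had another sign than with all samples. Cast genome counts, added after seeing the data, ended 1 call, the interaction of *Pgk1* (-0.16). With the spread taken from the male samples of the same cross alone, the number of genes called fell from 773 to 4 for the BC exonic clones. It fell from 435 to 3 for ΔP4, from 171 to 11 for ΔP2.1 and from 607 to 2 for exonic against promoter clones. For the CB exonic clones it was 912 against 1154, with 2 members called lower against 1. No member was called in the 3 comparisons of BC clones, with adjusted p = 0.097 for *Egln1* and 0.20 for *Slc16a3* in the BC exonic clones by edgeR. For the interaction, fitted to the male samples of both crosses, the number fell from 1410 to 823. With all clones of a cross as 1 group, 61 genes were called in BC and 56 instead of 1154 in CB, and no member was called in either cross. DESeq2 called 749 genes in ΔP4 and 488 in ΔP2.1. With ΔE1 and ΔE3 averaged, *Bnip3* was called as well in the BC exonic clones (adjusted p = 0.018, edgeR).

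Leaving out 1 sample at a time gave 171 to 2183 called genes for the BC exonic clones, 13 to 1186 for ΔP4 (854 without ΔE2.5 and 856 without ΔE2.7), 252 to 1663 for the CB exonic clones, 11 to 679 for ΔP2.1 (497 without ΔE2.5 and 488 without ΔE2.7), 170 to 1629 for exonic against promoter clones (936 without ΔE2.5 and 945 without ΔE2.7), 189 to 2462 for the interaction, 5311 to 6368 for female against male wt, 358 to 572 for the allele difference in BC and 0 to 467 for that in CB (459 without ΔE2.7). The highest counts come from fits without 1 of a pair of exonic clones, which takes the spread between them out of the estimate. Without ΔP4 or ΔP2.1 their own comparisons could not be made. A replicate block in female against male wt called 5853 genes against 6068 and changed no call of a member. The replicate numbers share only a number, as deviations of same-numbered wt samples correlated at 0.19, 0.06 and -0.002 over genes.

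With 1 or 2 samples per group, a single clone can set a call. The depth of SNP fragments, 281 to 637 for *Egln1* in BC males, limits the allele values, and unique mapping limits *Pgk1* and *Bnip3*.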
